A study of Mus musculus with 3 samples.

Results

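The nuclear pore complex genes were followed as a group of 30 named genes out of 21887 protein-coding genes of the mouse, taken by their names. Their loci, each the span of a gene and 10 kb to either side of it (mm10), were read for accessible regions in ATAC-seq peak lists. ATAC-seq reads out DNA that a transposase can reach. The cells were of the mouse Ecomg myeloid progenitor line with the genotype FKBP12F36V_NIPBL, a degron fused to NIPBL, the factor that loads cohesin onto chromatin. All of them grew with GM-CSF and estradiol. The 0 h library had no dTAG, a degrader that marks the tagged protein for destruction, and the 6 h and 72 h libraries had been given dTAG for those times. There was 1 library per time, from 50000 cells each, so no difference has a replicate check and no test between times was made. No library without dTAG was used at 6 h or 72 h, so dTAG, time in culture and library cannot be told apart, and NIPBL protein was not measured in these data.

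Nuclear pores are the channels through which proteins and RNA cross the nuclear envelope. Stacked outer and inner rings of scaffold nucleoporins are anchored by membrane proteins and line a central channel filled with phenylalanine-glycine repeats that bind transport receptors. Filaments on the cytoplasmic face finish mRNA export, and a basket on the nuclear face touches chromatin. Most of these genes are used by every dividing cell. Nup210l, a paralog of Nup210 known mainly from testis, is the member that stands apart in its known use, and Sec13, Rae1, Gle1 and Aaas also work outside the pore scaffold or only at its edge.

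All 30 symbols matched the annotation. A start site with strand was at hand for 25 of them, and for the other 5 (Nup85, Nup43, Seh1l, Nup35 and Nup210l) either end of the gene span was used. The promoters printed here run from 250 bases before to 50 bases after the start, as RefSeq gives them on GRCm38.p6, the assembly of mm10. They were picked to show the range of the results: the highest start region (Nup98, the upstream of its 2 listed starts), the lowest with a listed start (Sec13), the member whose listed start held no region in any list (Nup160), the largest upward and the largest downward change of start rank at 72 h among genes with a listed start (Gle1 and Nup107), and the locus that gained most regions at 72 h (Nup153). Capitals mark matches, on either strand, to any of the 7 motifs spelled out after the sequences, and adjoining or overlapping matches merge into 1 run of capitals.
Nup98, chr7:102210117-102210416, minus strand: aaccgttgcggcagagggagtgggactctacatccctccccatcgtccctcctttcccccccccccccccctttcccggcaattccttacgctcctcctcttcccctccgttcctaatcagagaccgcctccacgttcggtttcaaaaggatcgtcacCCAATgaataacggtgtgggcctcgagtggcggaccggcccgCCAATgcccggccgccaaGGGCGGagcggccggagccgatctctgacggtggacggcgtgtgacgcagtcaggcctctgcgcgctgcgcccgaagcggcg
Sec13, chr6:113740632-113740931, minus strand: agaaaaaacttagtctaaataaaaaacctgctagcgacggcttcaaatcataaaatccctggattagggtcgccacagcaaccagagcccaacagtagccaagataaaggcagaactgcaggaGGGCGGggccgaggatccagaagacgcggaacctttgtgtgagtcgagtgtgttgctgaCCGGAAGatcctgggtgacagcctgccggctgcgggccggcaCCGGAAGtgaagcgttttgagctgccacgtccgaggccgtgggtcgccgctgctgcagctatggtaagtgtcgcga
Nup160, chr2:90676965-90677264, plus strand: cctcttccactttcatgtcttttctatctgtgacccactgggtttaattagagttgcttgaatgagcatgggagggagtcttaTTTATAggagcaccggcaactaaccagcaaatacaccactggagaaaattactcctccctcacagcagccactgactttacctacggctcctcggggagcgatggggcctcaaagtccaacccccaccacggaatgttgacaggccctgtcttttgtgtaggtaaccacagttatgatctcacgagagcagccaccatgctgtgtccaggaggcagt
Gle1, chr2:29935159-29935458, plus strand: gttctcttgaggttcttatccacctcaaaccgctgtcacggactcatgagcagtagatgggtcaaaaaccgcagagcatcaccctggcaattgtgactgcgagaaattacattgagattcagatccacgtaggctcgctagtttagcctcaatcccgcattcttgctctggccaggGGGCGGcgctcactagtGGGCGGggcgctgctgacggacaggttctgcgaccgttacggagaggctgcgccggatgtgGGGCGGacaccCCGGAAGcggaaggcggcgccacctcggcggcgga
Nup107, chr10:117792656-117792955, minus strand: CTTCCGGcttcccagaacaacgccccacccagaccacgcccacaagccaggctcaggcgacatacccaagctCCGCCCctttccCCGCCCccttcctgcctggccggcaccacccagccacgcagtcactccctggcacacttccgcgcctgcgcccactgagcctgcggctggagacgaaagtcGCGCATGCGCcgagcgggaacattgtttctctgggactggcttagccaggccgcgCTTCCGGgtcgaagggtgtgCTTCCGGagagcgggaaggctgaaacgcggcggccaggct
Nup153, chr13:46727800-46728099, minus strand: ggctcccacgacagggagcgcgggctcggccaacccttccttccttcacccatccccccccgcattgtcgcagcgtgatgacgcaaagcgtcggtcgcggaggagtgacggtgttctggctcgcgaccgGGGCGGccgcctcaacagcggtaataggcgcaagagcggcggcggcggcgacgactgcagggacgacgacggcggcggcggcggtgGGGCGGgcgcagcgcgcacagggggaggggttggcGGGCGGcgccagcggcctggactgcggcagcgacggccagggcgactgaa

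The promoters of the pore genes were rich in G and C. Their median GC content was 63.7% over 25 genes, against 57.3% over 17492 protein-coding genes with such a window, and the median ratio of observed to expected CpG was 0.903 in pore genes and 0.610 in all genes, each taking the highest value among a gene's windows. Motifs were counted as exact letters on both strands, a gene with several listed starts counting once. The GC box, GGGCGG, was found in 17 of the 25 pore genes (68%) and in 49.2% of all genes. The core of ETS sites, CCGGAAG, was found in 8 pore genes (32%) and in 12.9% of all genes, with 3 matches in the Nup107 window and 2 in the Sec13 window. The first letters of the NRF1 motif, GCGCATG, were found in 6 pore genes (24%) and in 5.4% of all genes, and in the Nup107 window this match overlaps its own match on the other strand. The first letters of a YY1 motif, AAGATGG, were found in 4 pore genes (Nup188, Nup205, Nup50 and Nup88, 16%) and in 7.18% of all genes. The CCAAT box was found in 9 pore genes (36%) and in 42.3% of all genes. The E-box, CACGTG, was found in 4 pore genes (16%) and in 8.91% of all genes, and the TATA box, searched as TATAAA, in 3 pore genes (12%) and in 14.8% of all genes. These are matches of letters in a fixed window, not sites of binding. The Nup160 window had a CpG ratio of 0.314, the lowest of the 6 windows printed here. It held a single match, to the letters TATAAA on the opposite strand, with its first base at -167 from the start.

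The numbers of listed regions were 182233 (0 h), 178055 (6 h) and 145044 (72 h). A region is a line of the authors' peak list, with the authors' fold, the ratio of its summit to the caller's background, which is printed for each library as listed. Folds of different libraries were not scaled to one another, and heights are compared between times by their rank within each library. The folds lay on an even grid. If the caller added 1 fragment to summit and background, the lowest listed summit was 3 fragments in each list, and the background of the 6 h and 72 h libraries was 1.01 and 0.870 times that of the 0 h library. Markers fixed for the cells and for other cell types differed between times as well. Loci of 8 myeloid progenitor genes held 130, 128 and 130 regions at 0, 6 and 72 h, a sum of moves both ways. Ptprc held 22, 20 and 38 and Csf2rb 17, 22 and 24, while Elane held 24, 20 and 13 and Kit 7, 5 and 0. Loci of 6 mature neutrophil genes held 29, 41 and 54, those of 5 erythroid genes 33, 32 and 25, of 5 lymphoid genes 43, 34 and 19, and of 5 fibroblast or epithelial genes 44, 40 and 29. Hbb-bt (erythroid) and Krt5 (epithelial) were also at 0 at 72 h. Over all protein-coding loci the 72 h sum was 0.854 of the 0 h sum. In bulk libraries a smaller share of cells with an open site and less opening per cell cannot be told apart, and the part of these marker shifts in the results was not tested.

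Accessibility at the starts of the pore genes was present throughout. A region lay within 1 kb of the start in 29 of the 30 genes at 0 h (96.7%), in 28 at 6 h and in 28 at 72 h (93.3% each), against 62.1%, 61.7% and 57.6% of all protein-coding genes. The difference between times came from Nup210l alone, and Nup160, the 1 gene without a start region at 0 h, gained none (background 4.58% at 6 h and 2.17% at 72 h of all genes without one at 0 h). The background rate of a start region at 0 h with none at 6 h was 3.47% of all genes with one at 0 h, and that at 72 h was 8.55%; Nup210l was the 1 pore gene of 29 counted at each time. None of the 28 genes with a start region in all 3 lists moved by 20 or more percentile points in rank at 72 h, where the background was 3.15% upward and 4.7% downward over 12378 genes. At 6 h none of the 28 did either, with a background of 0.25% upward and 0.194% downward. A rank is the percentile of the highest start region by fold within its own library among those 12378 genes.

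**Figure D1:**
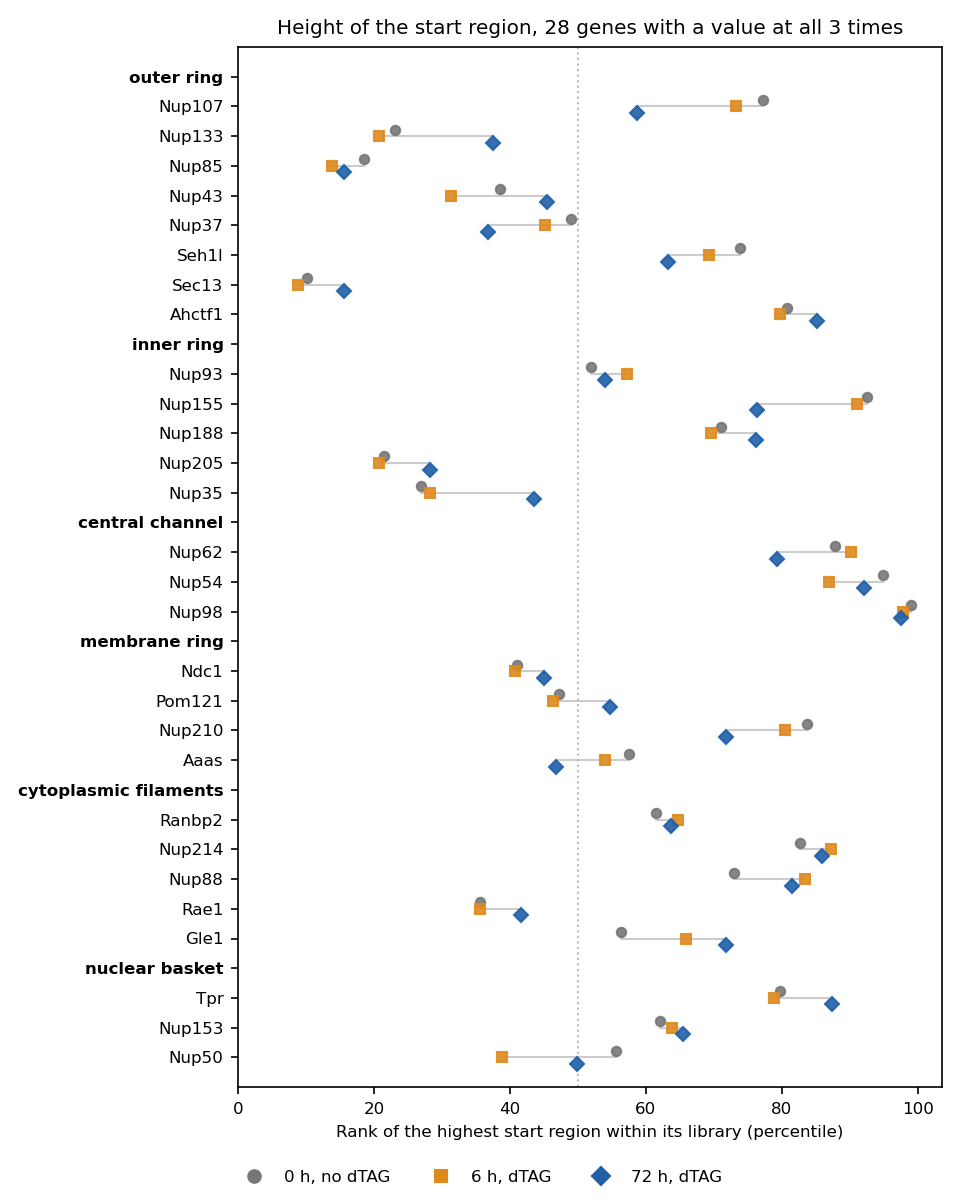
Rank of the highest start region within its own library (percentile, horizontal axis) for 28 nuclear pore genes in 6 structural groups, with 1 library per time at 0 h (circles), 6 h (squares) and 72 h (diamonds), a line from the lowest to the highest of the 3 values and a dotted line at 50. Nup98 stays above 97 at each time, Sec13 below 16, and the longest shifts at 72 h are those of Nup107, Nup35 and Nup155.

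The pore genes spread over nearly the whole range of start heights. Their median rank was 59.5, 64.3 and 61.0 at the 3 times, against about 50 for all ranked genes by construction, and 18 of the 28 ranked above 50 at 0 h. The highest were Nup98, Nup54 and Nup155. Nup98, whose precursor is cut into the channel protein Nup98 and the outer ring protein Nup96, had folds of 198, 213 and 240 at 0, 6 and 72 h and ranks of 99.1, 97.9 and 97.5. Nup54, a channel subunit, had folds of 156, 154 and 196, and Nup155, a scaffold of the inner ring, 146, 168 and 138. Apart from Nup210l, the lowest were Sec13, shared with the coat of secretory vesicles, with folds of 15.9, 15.1 and 21.1, Nup85, an outer ring subunit, with 27.97, 22.6 and 21.1, and Nup205, a large scaffold of the inner ring, with 32.5, 33.9 and 42.9. The outer ring genes, whose proteins enter the pore as a single complex, were graded in height, with Nup133 at 34.8, 33.9 and 59.3, Nup43 at 54.4, 50.5 and 72.6, Nup37 at 67.3, 71.6 and 57.8, Seh1l at 103, 112 and 107, Nup107 at 109, 120 and 97.6, and Ahctf1 at 116, 134 and 166.

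Shifts of start rank were modest and went both ways. At 6 h the median change over the 28 genes was -1.13 points, with 9 higher and 19 lower, against a median of 0.0364 over all ranked genes. Over all 12378 ranked genes 6251 stood higher at 6 h than at 0 h and 6124 lower. All 8 ranked outer ring genes stood lower at 6 h than at 0 h, with changes of -7.21 to -1.08 points, and so did all 4 ranked membrane ring genes, with changes of -3.61 to -0.287 points. All 5 cytoplasmic filament genes stood higher, by 0.105 to 10.5 points. Nup88, which holds Nup214 at the cytoplasmic face, made the largest upward shift at 6 h, to rank 83.4 at 6 h against 72.9 at 0 h. Nup50, a basket protein that helps release import cargo, made the largest downward one, to 38.9 at 6 h against 55.6 at 0 h.

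At 72 h the median change was 3.4 points, with 17 genes higher and 11 lower, against 0.481 over all ranked genes. Nup35, an inner ring protein that binds membranes, stood at rank 43.5 at 72 h against 26.9 at 0 h. Gle1, which activates the helicase of mRNA export, stood at 71.7 against 56.3, and Nup133, at the stem of the outer ring, at 37.5 against 23.0. In the other direction Nup107, the core of that stem, stood at 58.7 at 72 h against 77.2 at 0 h, Nup155 at 76.4 against 92.6, and Nup37, a peripheral outer ring subunit, at 36.7 against 49.0. The 5 cytoplasmic filament genes again all stood higher and the 3 channel genes all lower, while the outer ring was split with 4 higher and 4 lower. The channel genes Nup98, Nup54 and Nup62 ranked 99.1, 94.9 and 87.8 at 0 h and 97.5, 92.1 and 79.3 at 72 h. Whether their high ranks at 0 h bear on the direction of these shifts was not tested. With 1 library per time none of these shifts has an error of its own.

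Nup160, in an arm of the outer ring complex, had no region within 1 kb of its listed start (chromosome 2, 90677215) at any time. The highest stretch nearby lay inside the gene, at 90679014 to 90679528 and centred 2056 bp after that start, with folds of 77.1, 78.4 and 76.5 at 0, 6 and 72 h and ranks of 93.3, 91.7 and 89.3 among the stretches listed at all 3 times. With a window of 2500 bp around the start all 30 genes had a start region at all 3 times, a window chosen after the positions were seen. For Nup210l at 6 h and 72 h that window takes in only a stretch at the starts of its neighbours Rab13 and Rps27.

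The paralogs Nup210 and Nup210l had the most regions of all members at 0 h, with 30 and 20, but not both a high start region. Their spans of 105.3 and 111.1 kb are among the longest of the members, beside Nup93 with 113.5 kb and 15 regions. Counts were not scaled for length. Nup210, the membrane glycoprotein of the pore ring, had a start region with folds of 122, 136 and 126 at 0, 6 and 72 h, and its locus held the most regions of any member at 0 h and 6 h, with 30 and 24, and 24 at 72 h, as many as Nup153. Nup210l had 2 start regions at 0 h, both of fold 3.02, or 3 fragments, and none at 6 h or 72 h. Both lay just beyond the upper end of its span, and 1 (chromosome 3, 90212838 to 90212920) was also within 1 kb of an end of Rab13 and of Rps27. As the strand of Nup210l was not at hand, that end may not be its start. Its locus held 20, 15 and 6 regions, and the highest among them (chromosome 3, 90213324 to 90213916, folds of 83.2, 94.2 and 126) lay outside the gene at the starts of the neighbours Rab13 and Rps27. Of its 25 stretches, counted as described further on, 10 were listed at 0 h only, 5 at 6 h only and 0 at 72 h only. Over all protein-coding loci these classes made up 14.1%, 11.4% and 10.6% of the stretches.

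Start regions of the pore genes were listed in pieces more often at 72 h than at 6 h. The 0 h start region was overlapped by at least 2 regions in 11 of 29 genes at 72 h (37.9%, background 25.8%) and in 2 of 29 at 6 h (6.9%, background 12.5%). At Nup62, the main channel protein, a region of 1361 bp at 0 h and 1397 bp at 6 h gave way to 3 pieces at 72 h, the highest of 818 bp. At Ndc1, a membrane anchor of the pore, the highest region measured 776, 742 and 219 bp, at Rae1, an mRNA export factor, 694, 648 and 275 bp, and at Nup50 1272, 1340 and 563 bp. The highest start regions of Nup153, Tpr and Ahctf1 were in 1 piece of over 1 kb at all 3 times. Ranbp2 went the other way, with 2 regions at 0 h and 6 h on the stretch that held 1 at 72 h. So did Sec13, with 2 regions at 0 h on the stretch that held 1 at 6 h and at 72 h. The median length of the highest start region was 694, 727 and 505 bp in pore genes, and 532, 526 and 433 bp over all genes.

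The 30 loci together contained 337, 320 and 294 regions at the 3 times. Divided by the same ratio over all protein-coding loci, the later sums came to 0.972 (0.832 to 1.14) of the 0 h sum at 6 h and 1.02 (0.871 to 1.20) at 72 h. The intervals are exact 95% intervals for counting error only, and both include 1. The median locus held 11, 11 and 9 regions, against 7, 7 and 5 over all protein-coding genes. At 6 h 12 loci held more regions than at 0 h, 14 fewer and 4 as many, against 6547, 7918 and 7422 of all 21887 protein-coding loci. At 72 h 9 held more, 15 fewer and 6 as many, against 4521, 11438 and 5928 of all. The loci with as many include 2913 with no region at any time, none of them a pore locus.

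**Figure D2:**
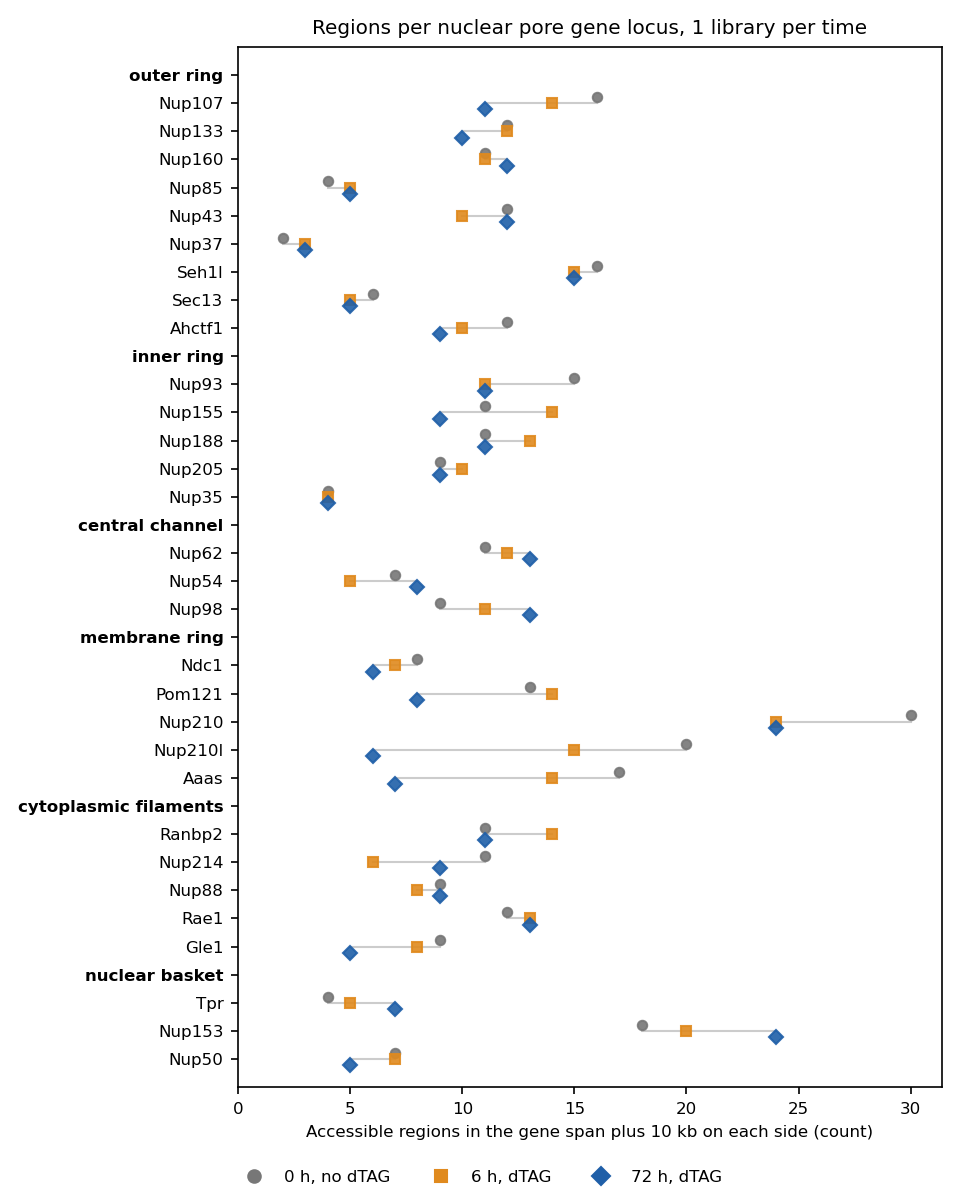
Number of accessible regions in each of the 30 loci (gene span plus 10 kb on each side, horizontal axis from 0) at 0 h (circles), 6 h (squares) and 72 h (diamonds), with 1 library per time. The 3 channel genes end to the right at 72 h, with 8, 13 and 13 regions, while all 5 membrane ring genes end to the left, Nup210l at 6 against 20 and Aaas at 7 against 17.

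A locus was called when it held at least 1.5 times as many or as few regions and differed by at least 3. At 6 h none of the 30 was called higher (background 2.8%) and 1 lower, Nup214 (3.33%, background 4.64%). Nup214, the anchor of the cytoplasmic filaments, held 6 regions at 6 h against 11 at 0 h, and 9 at 72 h. At 72 h 1 was called higher, Tpr (3.33%, background 3.65%), and 4 lower, Aaas, Gle1, Nup210l and Pom121 (13.3%, background 20.2%). Both shares lay near or below the background, so the pore genes as a group did not stand apart by this count.

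The sums of the structural groups, with few genes in each, did not all go the same way. The 5 membrane ring loci held 88, 74 and 51 regions at 0, 6 and 72 h, which scales to 0.679 (0.471 to 0.969) at 72 h. All 5 held fewer regions at 72 h than at 0 h, as did 11438 of all 21887 protein-coding loci. Without Nup210l the other 4 membrane ring loci held 68, 59 and 45, a ratio of 0.775 (0.519 to 1.15). Aaas, whose product ALADIN is held at the pore by Ndc1, held 17, 14 and 7 regions, Pom121, an anchor in the pore membrane, 13, 14 and 8, and Ndc1 8, 7 and 6. In the flank of Aaas the stretch at chromosome 15, 102355117 to 102355787, within 1 kb of an end of the bone factor gene Sp7, was listed at all 3 times with folds of 29.5, 24.9 and 9.37.

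The 3 channel loci together contained 27, 28 and 34 regions, scaling to 1.47 (0.863 to 2.54) at 72 h, and the 3 basket loci 29, 32 and 36, scaling to 1.45 (0.867 to 2.46). The basket sum was led by Nup153, which links the basket to the lamina and binds chromatin, with 18, 20 and 24 regions, and by Tpr, the coiled-coil filament of the basket, with 4, 5 and 7. Nup50 went the other way, with 7, 7 and 5. Nup98 held 9, 11 and 13, and Nup62 11, 12 and 13. The outer ring held 91, 85 and 82 regions (1.06 times at 72 h, 0.773 to 1.44), the inner ring 50, 52 and 44 (1.03, 0.671 to 1.58) and the cytoplasmic filaments 52, 49 and 47 (1.06, 0.698 to 1.60). In the outer ring Nup107 held 16, 14 and 11 regions, and Seh1l, a subunit shared with a nutrient-sensing complex, 16, 15 and 15. Ahctf1 held 12, 10 and 9, Nup133 12, 12 and 10, Nup43 12, 10 and 12, and Nup160 11, 11 and 12, while Sec13, Nup85 and Nup37 stayed between 2 and 6. In the inner ring Nup93, the linker of its scaffold, held 15, 11 and 11, Nup188 11, 13 and 11, Nup205 9, 10 and 9, and Nup35 4 at every time. Among the filament genes Gle1 held 9, 8 and 5, Rae1 12, 13 and 13, and Nup88 9, 8 and 9. At 6 h the largest increases were at Nup155 and Ranbp2, the SUMO ligase of the filaments, each with 14 regions at 6 h against 11 at 0 h. The intervals of all groups but the full membrane ring include 1, and so do those of every group at 6 h.

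Regions present at 0 h were kept in the pore loci at about the rate of all loci. Of 337 regions at 0 h, 75.4% (70.4 to 79.9) were overlapped by at least 1 bp at 6 h and 65.3% (59.9 to 70.4) at 72 h, against 77.9% and 63.3% over all protein-coding loci. Overlap followed height. Of the 180 strong regions, those in the upper 50% of their list by −log10 q, 96.1% (92.2 to 98.4) were overlapped at 6 h and 90.0% (84.7 to 94.0) at 72 h. The same shares over all loci were 97.8% and 86.7%. Of the 157 weak ones 51.6% and 36.9% were overlapped.

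Strong regions with no overlap at 72 h numbered 18 in the pore loci, and 13 of the 30 genes held at least 1 (43.3%, background 45.7%). Pom121 held 3, and Aaas, Nup210 and Seh1l 2 each. Strong 72 h regions with no overlap at 0 h numbered 9, in 8 of the 30 genes (26.7%, background 23.4%): Nup54, Nup62, Nup85, Nup88, Ranbp2, Sec13, Seh1l and Tpr, with 2 at Nup62 and 1 at each of the others. At 6 h 7 strong regions had no overlap, in 6 genes (20%, background 11.1%), and 3 were new, at Nup205, Ranbp2 and Tpr (10%, background 8.13%).

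To follow single sites, overlapping regions of the 3 lists were joined into 433 stretches. Of these 201, or 46.4% (41.6 to 51.2), were listed at all 3 times, against 43.7% in all protein-coding loci. By position, 47 of 66 stretches at gene starts (or either end of the 5 spans without a listed start) were listed at all 3 times (71.2%), 70 of 192 elsewhere in the genes (36.5%) and 84 of 175 in the flanks (48.0%). In the flanks 51 of the 175 lay within 1 kb of the start or end of another protein-coding gene, so some of the loci take in sites of neighbours. Other loci, such as those of Nup85 and Nup35, held no such stretch. Stretches listed at 72 h only made up 40 of the 272 present at 72 h (14.7%, background 17.4%), and 27 of the 40 lay inside a gene away from its start. Stretches listed at 0 h and 6 h and not at 72 h made up 47 of 248 (19%, background 23.8%). Those listed at 6 h and 72 h and not at 0 h made up 17 of 218 (7.8%, background 8.21%). The highest of these at 72 h lay in the flank of Sec13 (chromosome 6, 113749212 to 113749379), with folds of 6.78 and 10.1 at 6 and 72 h, and inside Ranbp2 (chromosome 10, 58451448 to 58451630), with 3.77 and 10.1. Another inside Tpr (chromosome 1, 150405583 to 150405785) had 3.77 and 9.37. Stretches listed at 0 h only made up 67 of 329 (20.4%, background 19%).

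**Figure D3:**
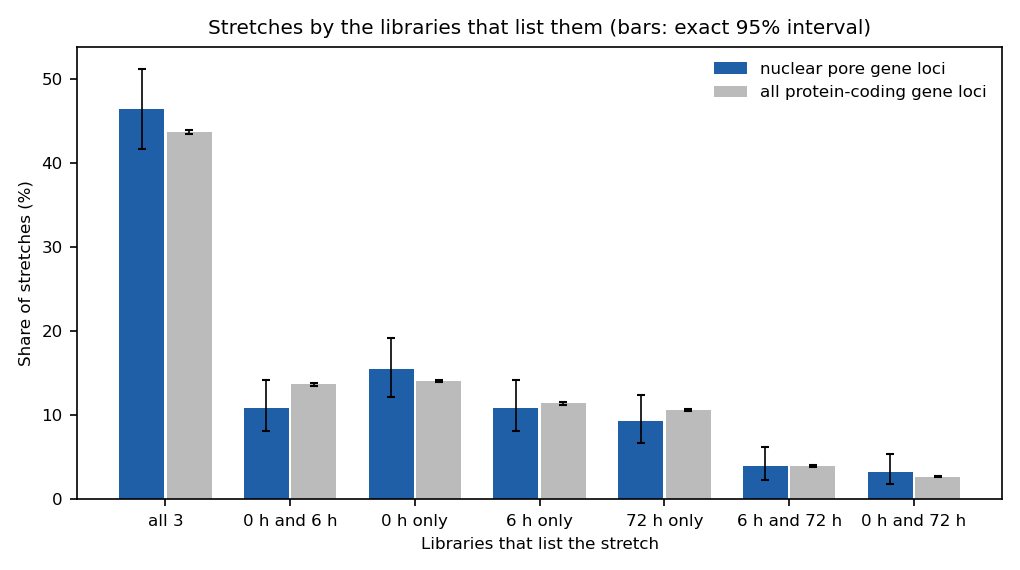
Share of stretches (percent, vertical axis from 0) by the libraries that list them, in nuclear pore gene loci (433 stretches, dark bars) and in all protein-coding gene loci (172632 stretches, light bars), with exact 95% intervals for counting error. Stretches listed at all 3 times lead with 46.4% and 43.7%, and the 2 kinds of loci lie within 3 points of each other in every class.

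Most stretches seen at a single time were weak. The 67 listed at 0 h only had a median fold of 3.78 and 0 reached a fold of 10, and the 40 listed at 72 h only had a median fold of 4.68, with 5 at 10 or more. Those 5 were named after their values were seen. The highest lay inside Nup85 at chromosome 11, 115574556 to 115574808, with a fold of 18.0 and, on the assumption above, 22 summit fragments (13.8 to 33.3, exact 95% Poisson interval). The others were beyond the end of Nup62 (chromosome 7, 44832205 to 44832466, fold 14.8), inside Nup54 (chromosome 5, 92419840 to 92419945, fold 14.1), inside Nup62 (chromosome 7, 44825648 to 44825789, fold 11.7) and inside Nup88 (chromosome 11, 70962443 to 70962637, fold 10.9). Of the 47 stretches at 0 h and 6 h and not at 72 h, 2 had a fold of 10 or more at 0 h. They were at an end of the Seh1l span, with folds of 12.1 and 6.78 at 0 and 6 h, and in the flank of Aaas, with 10.6 and 7.54.

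Among the 201 stretches listed at all 3 times, 39 stood at least 20 rank points higher at 72 h than at 0 h (19.4%, background 16.2%) and 16 at least 20 points lower (7.96%, background 14.3%). The rank here is among 98083 stretches listed at all 3 times. At 6 h 10 stood higher (4.98%, background 4.12%) and 5 lower (2.49%, background 4.12%). Nup153 held the most, with 7 of its 16 such stretches higher at 72 h and 0 lower, besides 7 stretches listed at 72 h only. Those listed at 72 h only were all weak, with folds of 3.90 to 8.59, or 4 to 10 summit fragments.

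**Figure D4:**
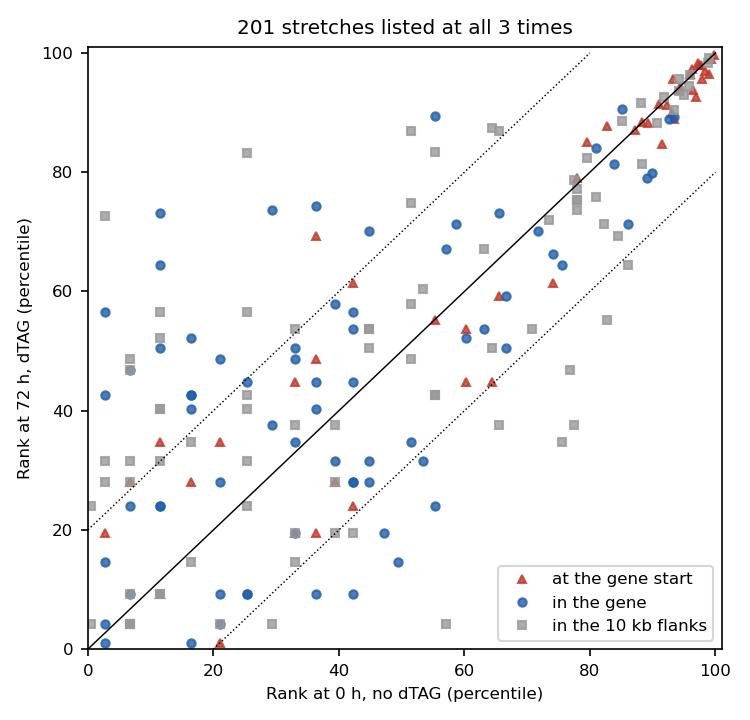
Rank within its own library (percentile) of each of 201 stretches in nuclear pore gene loci listed at all 3 times, at 72 h with dTAG (vertical axis) against 0 h without dTAG (horizontal axis), by position at the gene start (triangles), in the gene (circles) or in the flanks (squares). The solid line marks equal rank and the dotted lines a shift of 20 points. Of the 201, 39 lie on or above the upper and 16 on or below the lower dotted line, and a stretch near the right edge has no room to stand much higher.

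The stretches with the largest upward shift were weak at 0 h and mid-height to high at 72 h, and were picked after their values were seen. Upstream of Nup153 (chromosome 13, 46735270 to 46735507) the folds were 3.78, 7.54 and 32.0 at 0, 6 and 72 h, or 40 summit fragments at 72 h (28.6 to 54.5) against 4 at 0 h (1.09 to 10.2). Inside Nup107 (chromosome 10, 117764574 to 117764902, 27967 bp after the start) they were 5.29, 8.29 and 32.8, or 41 fragments at 72 h (29.4 to 55.6) against 6 at 0 h (2.2 to 13.1). Near Nup43, an outer ring subunit, the stretch at chromosome 10, 7664954 to 7665472, had folds of 7.56, 14.3 and 53.1. Inside Nup98 the stretch at chromosome 7, 102193909 to 102194080, had 5.29, 4.52 and 23.4. A stretch before the Nup160 start (chromosome 2, 90673303 to 90673625) was of mid-height at 0 h and had a smaller shift in rank than these. Its folds were 14.4, 16.6 and 65.6, with ranks of 51.5, 54.7 and 86.9. That is 83 fragments at 72 h (66.1 to 102.9) against 18 at 0 h (10.7 to 28.4). The summit intervals cover counting error only and are not scaled for depth. Those of 72 h and 0 h do not overlap at these sites. This is no test, since the sites were picked after those values were seen. By rank the 6 h value lay between the other two at Nup153 (2.65, 22.2 and 72.6) and Nup107 (11.4, 26.2 and 73.2), and below that of 0 h at Nup98 (11.4, 5.13 and 64.5).

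**Figure D5:**
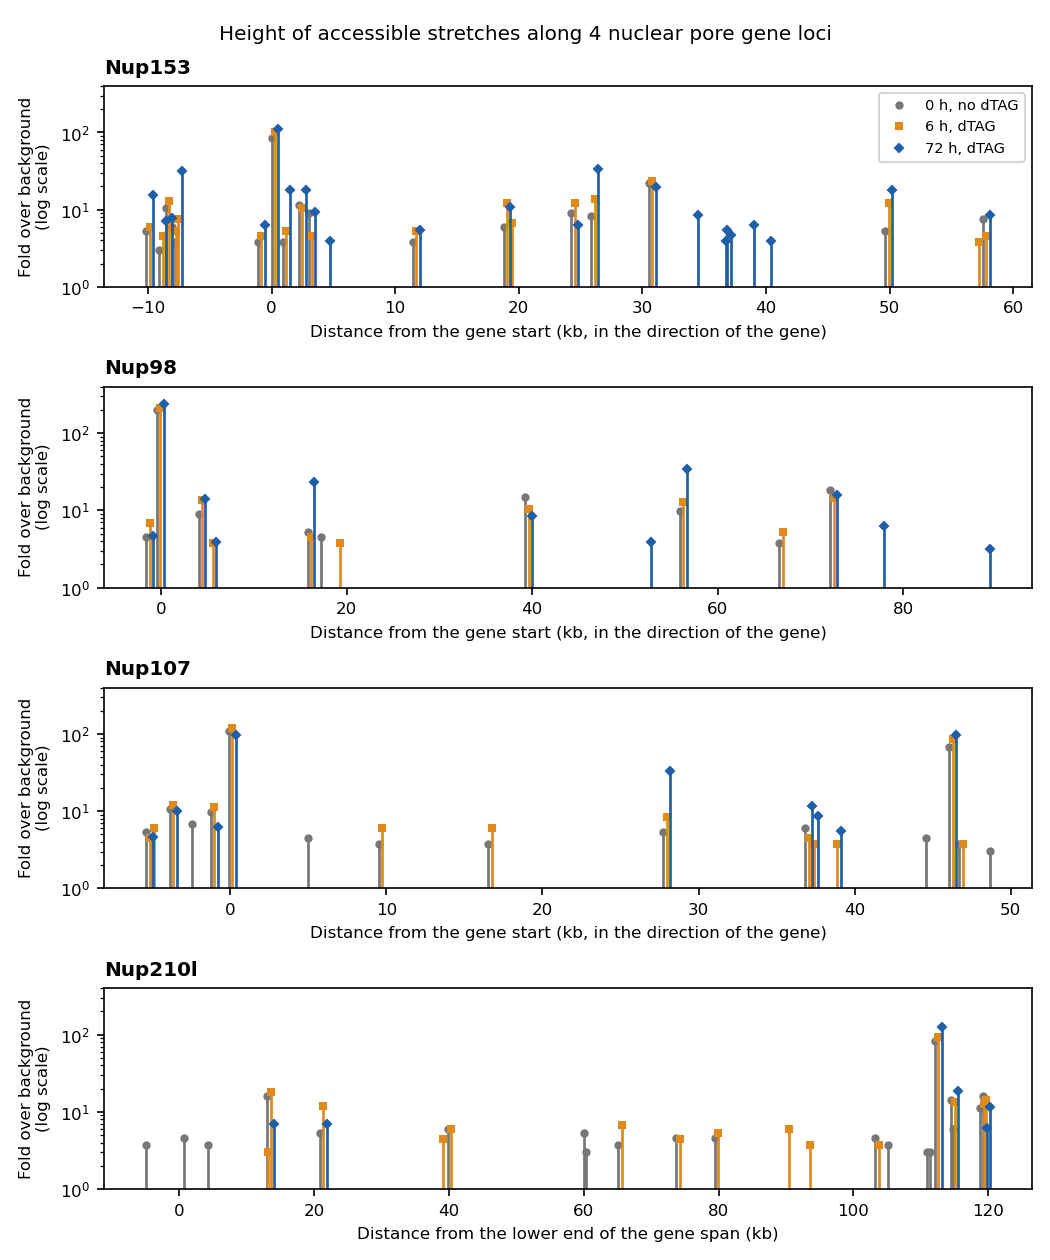
Height of each accessible stretch (fold over the caller's background, log axis) along the loci of Nup153, Nup98, Nup107 and Nup210l, against the distance in kb from the gene start, or for Nup210l from the lower end of its span, at 0 h (circles), 6 h (squares) and 72 h (diamonds), drawn slightly apart. The start region is the highest stretch at every time at Nup153 and Nup98, and at 0 h and 6 h at Nup107, where a flank stretch within 1 kb of an end of Slc35e3 has a fold of 98.4 at 72 h beside 97.6 at the start. Nup210l has no such start region, and its highest stretch lies in the flank.

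The largest downward shifts lay in the flanks or inside the genes, and exons and introns were not told apart here. Before the Nup160 start (chromosome 2, 90674677 to 90674824) the folds were 16.6, 8.29 and 3.90 at 0, 6 and 72 h, or 4 summit fragments at 72 h (1.09 to 10.2) against 21 at 0 h (13 to 32.1). In the flank of Nup133 (chromosome 8, 123891430 to 123891685) they were 31.0, 30.1 and 13.3, and in that of Ahctf1, the protein that brings the outer ring to chromatin after mitosis, 21.2, 21.1 and 10.1 (chromosome 1, 179735199 to 179735369). Inside Ranbp2 (chromosome 10, 58452844 to 58452997) they were 13.6, 12.1 and 5.46, and inside Nup210 (chromosome 6, 91085644 to 91085744) 11.3, 9.04 and 4.68. A stretch in the flank of Seh1l had 31.7, 31.6 and 10.1. By rank the 6 h value at Nup160 lay between the others (57.1, 26.2 and 4.21).

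Other genes of nuclear transport, a list of 40 importins, exportins, Ran cycle and mRNA export genes and further pore genes, held 412, 404 and 403 regions at 0, 6 and 72 h. Scaled in the same way, the 72 h sum was 1.15 (0.996 to 1.32), and the interval overlaps that of the 30 pore genes. Of the 40, 3 were called higher at 72 h (Kpna1, Kpna3 and Kpna4, importin alpha genes, 7.5%, background 3.65%) and 6 lower (15%, background 20.2%), against 1 and 4 of the 30 pore genes. At 6 h 4 of the 40 were called higher (Ipo5, Ipo8, Kpna1 and Kpna2, 10%, background 2.8%) and 0 lower (background 4.64%), against 0 and 1 of the 30 pore genes. Tnpo1, an import receptor, held 25, 22 and 30 regions, Kpna1 6, 11 and 10, and Kpna3 4, 6 and 8. Rangap1, which activates GTP hydrolysis by Ran, held 17, 13 and 8, Xpot, the tRNA exporter, 18, 15 and 12, and Ranbp3, a cofactor of export, 15, 12 and 10. A start region was listed in 38 of the 40 at each time, and the median start rank was 65.4, 66.1 and 69.1. The 0 h start region lay in at least 2 pieces in 11 of the 38 at 6 h (28.9%, background 12.5%). At 72 h it did so in 14 (36.8%, background 25.8%), near the share of the pore genes.

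Some pore genes share their start with a neighbour. Of the 25 with a listed start, 6 (Nup37, Nup188, Nup62, Nup98, Nup88 and Tpr) had the start of another protein-coding gene within 1 kb, against 11.3% of all genes with a listed start. The neighbours were Parpbp, Dolk, Atf5 and Il4i1b, Pgap2, Rpain and Odr4. Accessibility at these starts cannot be assigned to the pore gene alone, and that holds for the highest start region of all, at Nup98.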

How the data were processed

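ATAC-seq peak lists of 3 libraries were used, 1 per time. The submitters' processing notes name BWA 0.7.17, MACS2 2.2.7 and bedtools 2.30.0 and the build mm10. The sources used here do not give read filters, duplicate handling or read shifts. The deposited lists came 1 per library, and their columns hold a score, a fold (ratio of summit to background), −log10 p, −log10 q and the summit position. The authors' folds and −log10 q were used to rank or filter within a list, and the deposited score was not used further.

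Regions sharing 1 bp were matched (Python 3.11.15, pandas 2.3.3, scipy 1.17.1). Genes, starts and promoters came from RefSeq GRCm38.p6. Strong regions were the upper 50% of a list by −log10 q. Intervals are exact (Clopper-Pearson for shares, binomial split for ratios, Poisson for summits), at 95%, cover counting error only, and treat regions of both times as independent. The fold grid was checked with a tolerance of 0.05 of a step (100% of folds). Read totals were not used, so depth is known only through that grid. Matching and ranking were checked on simulated lists.

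Members, lists and thresholds were chosen with earlier results of these data known. Named members are those without a start region in some list, with the most regions gained or lost (5 each at 72 h, 3 each at 6 h), the 3 highest and lowest start folds, the 3 largest start rank changes each way, and Nup210 with Nup210l. Of the other transport genes the 3 with most regions gained and lost are named, and further members as examples outside this rule. The NRF1 and YY1 motifs were shortened after a first search with longer forms. Stretches and their naming were added after the data were seen. Nup58 and Nup42 of the transport list are Nupl1 and Nupl2 in the annotation.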

Additional observations from a re-analysis of the deposited data

How the results depend on the processing

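Of 42 alternative values for 8 results, 35 stayed within the interval of the reported value, or within 1.5 times for counts. The 7 that moved were shares of 0 h regions overlapped later. At 6 h the reported 75.4% became 100% with only 0 h regions of fold 10 or more, 100% with a −log10 q of at least 10, 80.9% in lists of equal length and 70.3% when 50% of a region had to be covered. At 72 h the reported 65.3% became 98.4% with fold 10 or more, 95.9% with −log10 q of at least 10 and 77.1% in lists of equal length. These settings remove weak regions or ask for more overlap by construction. The summed regions relative to all loci ranged from 0.962 to 1.06 at 6 h and from 0.962 to 1.15 at 72 h, so at both times the side of 1 depended on the setting. No paired analysis was possible because each group held 1 library, and for the same reason no library could be left out. The lowest listed summit of 3 fragments limits what an absent region can show.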
